A study of Homo sapiens with 4 samples.

Results

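Peaks of histone H4 lysine 5 lactylation (H4K5la) on chromosomes 8 and 9 are described here for SH-SY5Y cells, a human neuroblastoma line. The members were all peaks that the 2 deposited lists place on either chromosome. They numbered 221 of 2743 in the list of DNAJC12 knockout cells (DNAJC12KO) and 159 of 1937 in the list of wild-type cells (WT), or 380 of 4680 on chromosomes 1 to 22, X and Y. The groups were SH-SY5Y cells carrying the DNAJC12 knockout and, as control, wild-type SH-SY5Y cells. Each genotype had 1 immunoprecipitated library, for which 2 μg of antibody was used, and 1 input library. The labels used here name no treatment, no clone and no knockout method, so whether the knockout line is 1 clone is not given. With 1 library per genotype, no difference between the genotypes has a replicate check and no test between them was made. The lists hold no read counts, so the depth of both libraries is unknown and its part in the length of a list was not tested. Shares carry 95% Clopper-Pearson intervals (exact binomial), which reflect counting error alone. A peak list measures no expression, so the cell type was not checked against its markers.

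Lactylation adds a lactyl group, made from lactate, to the lysines of histones, and has been described at regulatory regions of active genes in other cells. DNAJC12 encodes a co-chaperone for enzymes that hydroxylate aromatic amino acids. The ends of the long arms of chromosomes 8 and 9 hold many closely packed genes, among them the cytolinkers PLEC and EPPK1 on 8q and NOTCH1 and a family of lipocalins on 9q. The 8q end is taken here as the last 2.06 Mb before the last annotated gene end of chromosome 8 (145056030), where the peaks run from 143079463 to 144830204. The 9q end is the last 4.12 Mb before the last annotated gene end of chromosome 9 (138124619), where the peaks run from 134047253 to 138120944. At DNAJC12 itself (chromosome 10, 67796669 to 67838188) 0 peaks were called in either list. The nearest peak was 2126 kb away in the DNAJC12KO list and 2730 kb away in the WT list.

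Sequence is shown for promoters of chromosome 9 that carried a peak, since there a peak overlapped the sequence around or just before an annotated transcription start. RefSeq promoter windows (GRCh38.p14) span 250 bases before to 50 bases after a start. They were listed for 677 of the 778 protein-coding genes of chromosome 9, with 964 windows in all, and several genes have more than 1 window. DNAJC12KO peaks lay on 6 windows of 4 genes, WT peaks lay on 2 windows of 2 genes, and 0 windows carried a peak in both lists. With so few of the 964 windows under a peak, 0 in common says little about sharing. The share of windows under a peak was not taken over all chromosomes. The genes with a DNAJC12KO peak on a window were SLC25A25, a mitochondrial ATP-magnesium/phosphate carrier, SLC34A3, a sodium-phosphate cotransporter of the kidney, EGFL7, a secreted protein of endothelium, and PHYHD1. The genes with a WT peak were SEMA4D, a semaphorin that guides axons, and LCN15, a lipocalin. At LCN15 a DNAJC12KO peak overlapped this WT peak by 162 bp, just upstream of the window.

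In the sequences below, read along the gene's strand, capitals mark the bases that lie inside the peak. The SLC25A25 window (chr9:128098257-128098556, plus strand) lay wholly inside the DNAJC12KO peak at 128098047 to 128098677, with a fold of 3.59 over the background. The SLC34A3 window (chr9:137230651-137230950, plus strand) had 290 of its 300 bases in the DNAJC12KO peak at 137230661 to 137230953 (fold 4.20). The EGFL7 window (chr9:136662666-136662965, plus strand) had its 102 most upstream bases in the DNAJC12KO peak at 136662256 to 136662767 (fold 3.62). The SEMA4D window (chr9:89495607-89495906, minus strand) had 184 bases in the WT peak at 89495723 to 89496182 (fold 3.44). The LCN15 window (chr9:136764469-136764768, minus strand) had 32 bases in the WT peak at 136764737 to 136765069 (fold 4.01). In EGFL7, SEMA4D and LCN15 the peak covered the part of the window furthest upstream and did not reach the start.
SLC25A25: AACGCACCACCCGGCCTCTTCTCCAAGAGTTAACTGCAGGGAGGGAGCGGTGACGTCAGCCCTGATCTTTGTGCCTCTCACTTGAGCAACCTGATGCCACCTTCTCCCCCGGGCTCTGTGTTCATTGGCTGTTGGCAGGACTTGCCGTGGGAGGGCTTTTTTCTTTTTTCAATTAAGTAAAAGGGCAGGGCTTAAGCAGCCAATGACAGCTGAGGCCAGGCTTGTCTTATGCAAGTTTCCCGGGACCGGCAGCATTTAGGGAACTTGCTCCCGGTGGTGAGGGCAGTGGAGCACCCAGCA
SLC34A3: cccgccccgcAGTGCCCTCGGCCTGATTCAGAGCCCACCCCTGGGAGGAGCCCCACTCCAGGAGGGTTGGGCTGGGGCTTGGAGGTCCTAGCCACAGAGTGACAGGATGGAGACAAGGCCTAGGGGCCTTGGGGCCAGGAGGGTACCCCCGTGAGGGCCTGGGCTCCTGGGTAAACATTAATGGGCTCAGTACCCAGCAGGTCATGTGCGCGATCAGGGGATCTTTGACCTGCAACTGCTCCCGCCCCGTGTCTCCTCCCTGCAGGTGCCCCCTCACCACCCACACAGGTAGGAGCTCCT
EGFL7: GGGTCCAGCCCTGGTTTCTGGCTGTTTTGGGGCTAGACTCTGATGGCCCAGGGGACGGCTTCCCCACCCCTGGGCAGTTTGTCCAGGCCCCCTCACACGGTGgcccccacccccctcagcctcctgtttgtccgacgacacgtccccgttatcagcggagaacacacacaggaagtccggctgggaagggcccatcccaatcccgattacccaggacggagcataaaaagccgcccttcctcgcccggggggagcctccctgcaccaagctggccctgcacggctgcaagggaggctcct
SEMA4D: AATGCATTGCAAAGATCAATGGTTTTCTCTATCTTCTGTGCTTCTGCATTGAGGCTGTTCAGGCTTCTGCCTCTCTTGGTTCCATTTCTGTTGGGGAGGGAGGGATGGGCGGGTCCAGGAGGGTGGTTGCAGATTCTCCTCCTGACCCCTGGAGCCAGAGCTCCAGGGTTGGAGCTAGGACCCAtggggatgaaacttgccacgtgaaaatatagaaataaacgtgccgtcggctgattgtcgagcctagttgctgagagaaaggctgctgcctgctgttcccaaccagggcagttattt
LCN15: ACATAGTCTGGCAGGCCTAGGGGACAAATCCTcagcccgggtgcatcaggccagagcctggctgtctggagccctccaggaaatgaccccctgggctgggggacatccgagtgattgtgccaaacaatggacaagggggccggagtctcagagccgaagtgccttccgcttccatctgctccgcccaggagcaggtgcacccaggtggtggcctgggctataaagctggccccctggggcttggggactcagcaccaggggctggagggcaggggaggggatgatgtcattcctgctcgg

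The promoters under a peak held fewer CpG dinucleotides than most promoters of the chromosome, at a like share of G and C. The 8 windows, of which 3 are overlapping windows of SLC34A3, had 5 to 14 CpG each, with a median of 7.5, against a median of 23 over all 964 windows of chromosome 9. Their share of G and C bases had a median of 64.7%, against 64.3%. Only the LCN15 window lies at the outer start of its gene record. Those of SLC25A25, PHYHD1, EGFL7, SEMA4D and SLC34A3 lie at starts inside the record. The windows at the outer starts of SLC25A25, EGFL7 and PHYHD1, without a peak on them, held 37, 15 and 8 CpG. Inner and outer starts were not compared apart, so the low CpG number may belong to the kind of start. Windows with a peak no more than 3 kb away had a median of 10.5 CpG for the DNAJC12KO list (30 windows) and 9.5 for the WT list (14 windows). The GC box GGGCGG or its reverse complement CCGCCC was in 7 of the 8 windows under a peak, against 60.7% of all chromosome 9 windows and 56.3% of all protein-coding windows in the table, which has none for chromosome 8. These 7 include the 3 overlapping windows of SLC34A3, and in EGFL7 and LCN15 the box lay only in bases outside the peak. Of the windows with a peak no more than 3 kb away, 60% (DNAJC12KO) and 85.7% (WT) held it. These letters describe the windows and were not tested.

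**Figure D1:**
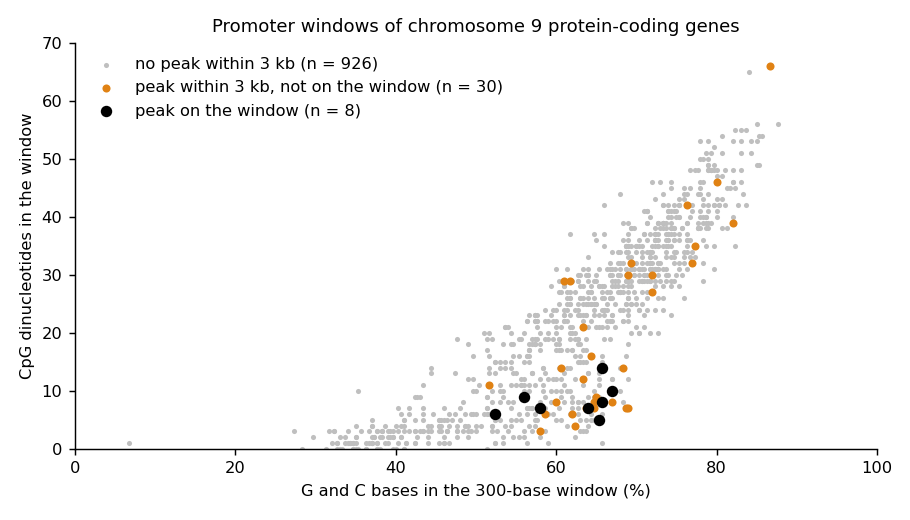
Each point is a 300-base promoter window of a chromosome 9 protein-coding gene, with the percentage of G and C bases on the x axis and the number of CpG dinucleotides on the y axis. The 8 windows under a peak (black) hold 5 to 14 CpG, all under the median of 23 of all windows.

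Peaks on both chromosomes were short and weak. The median width was 443 bp in DNAJC12KO cells (range 293 to 1558) and 447 bp in WT cells (range 279 to 1287). The authors' fold enrichment had a median of 3.76 in the DNAJC12KO list (range 3.25 to 5.01) and 3.94 in the WT list (range 3.39 to 5.14). The -log10 q of the peak caller had a median of 1.48 and a highest value of 3.06 in the DNAJC12KO list, and a median of 1.50 and a highest value of 3.19 in the WT list. Of these, 21 DNAJC12KO peaks (9.50%) and 16 WT peaks (10.1%) had a -log10 q of 2 or more, against 9.99% and 10.4% of the whole DNAJC12KO and WT lists. Folds of 4 or more were given to 52 of 221 DNAJC12KO peaks (23.5%) and 65 of 159 WT peaks (40.9%), against 17.3% of the whole DNAJC12KO list and 28.3% of the whole WT list. Fold depends on each library's own background, so these shares describe each list and are no measure of the mark between genotypes.

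The numbers per chromosome were 90 DNAJC12KO and 76 WT peaks on chromosome 8, and 131 DNAJC12KO and 83 WT peaks on chromosome 9. Chromosome 8 took 3.28% of the DNAJC12KO list (interval 2.65 to 4.02%) and 3.92% of the WT list (interval 3.10 to 4.89%), with 3.57% of protein-coding genes. Chromosome 9 took 4.78% of the DNAJC12KO list (interval 4.01 to 5.64%) and 4.28% of the WT list (interval 3.43 to 5.28%), with 3.88% of the genes. The number of DNAJC12KO peaks divided by WT peaks was 1.18 on chromosome 8 and 1.58 on chromosome 9, against 1.42 over all chromosomes. The ratio depends on which peaks are counted. With folds of 4 or more it was 0.622 on chromosome 8, 1.04 on chromosome 9 and 0.867 over all chromosomes. With the DNAJC12KO list shortened to the length of the WT list by -log10 q, it was 0.855 on chromosome 8 and 1.10 on chromosome 9.

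In both genotypes the peaks crowded towards the ends of the long arms. At the 8q end lay 31 of the 90 DNAJC12KO peaks (34.4%, interval 24.7 to 45.2%) and 39 of the 76 WT peaks (51.3%, interval 39.6 to 63.0%). That stretch holds 79 of the 715 protein-coding genes of the chromosome (11.0%). At the 9q end lay 64 of the 131 DNAJC12KO peaks (48.9%, interval 40.03 to 57.7%) and 38 of the 83 WT peaks (45.8%, interval 34.8 to 57.1%). It holds 97 of the 778 genes (12.5%). Counted per 100 protein-coding genes, the 8q end had 39.2 DNAJC12KO and 49.4 WT peaks, and the rest of chromosome 8 had 9.28 and 5.82. The 9q end had 66.0 DNAJC12KO and 39.2 WT peaks per 100 genes, and the rest of chromosome 9 had 9.84 and 6.61. Over all chromosomes the figures were 13.7 and 9.67.

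**Figure D2:**
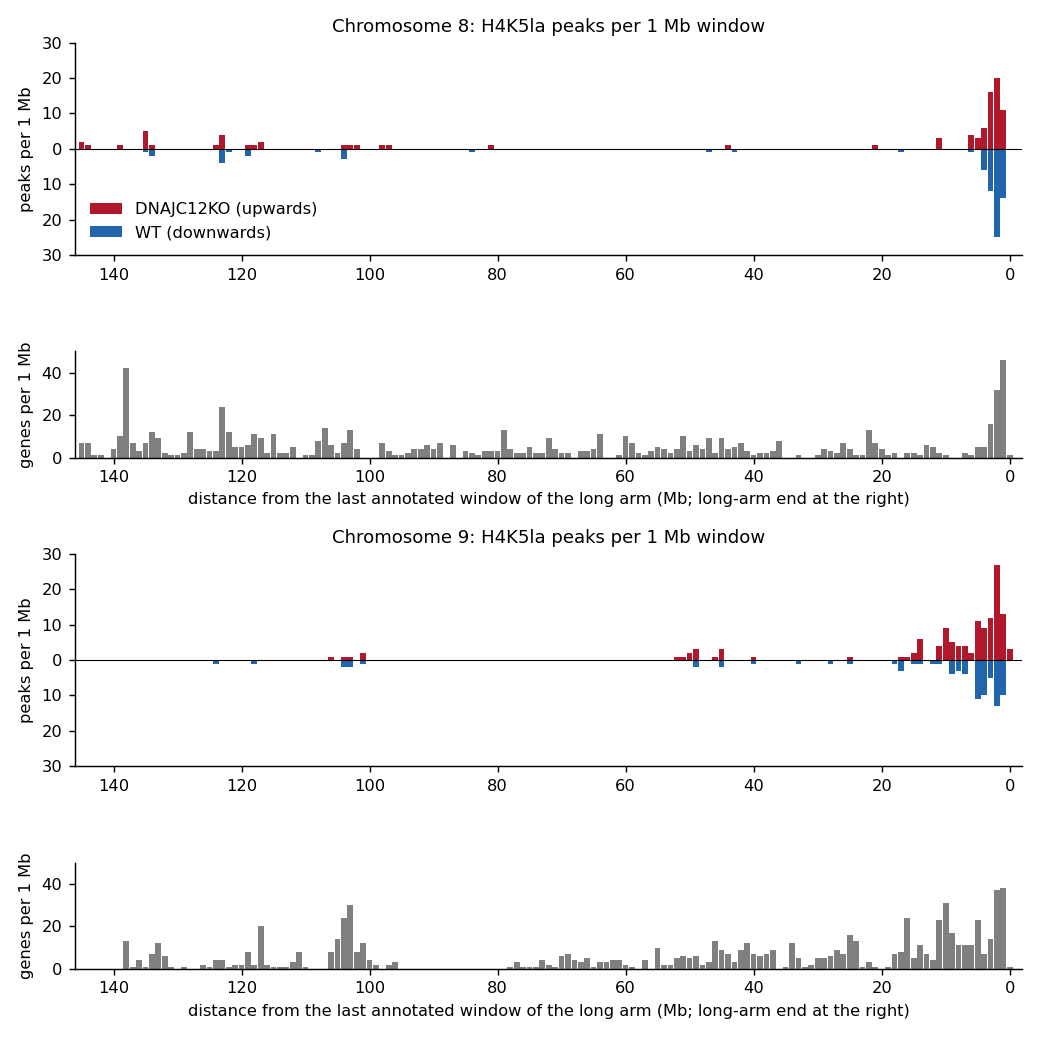
Bars give the number of H4K5la peaks per 1 Mb window on chromosomes 8 and 9, DNAJC12KO upwards and WT downwards, and grey bars the protein-coding genes per window. The x axis is the distance in Mb from the last annotated window, with the end of the long arm at the right, where the tallest bars of both genotypes stand.

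The window with the most peaks was the same in both lists on each chromosome. On chromosome 8 it was the 1 Mb window that holds ZC3H3 and PLEC, with 20 DNAJC12KO and 25 WT peaks. The window before it, with ADGRB1, held 16 DNAJC12KO and 12 WT peaks, and the window after it, with SCRT1, held 11 DNAJC12KO and 14 WT peaks. On chromosome 9 it was the window that holds NOTCH1 and TRAF2, with 27 DNAJC12KO and 13 WT peaks. The window after it held 13 DNAJC12KO and 10 WT peaks, and the window before it, with KCNT1, held 12 and 5. Away from the ends, the window from 128 to 129 Mb of chromosome 9 held 9 DNAJC12KO and 0 WT peaks, at SLC25A25, URM1, ODF2, PKN3, ZDHHC12, KYAT1, LRRC8A and PHYHD1. Singled out after its values were seen, it is 1 of 111 windows of chromosome 9 with a gene or a peak.

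Long stretches had no peak in either genotype. The longest on chromosome 9 ran from 37787182 to 86062139, or 48.3 Mb with 89 protein-coding genes, and includes the centromere and the large block of heterochromatin beside it. The longest on chromosome 8 ran from 64374270 to 98424200, or 34.05 Mb with 141 protein-coding genes, and includes no centromere. The short arms carried a smaller share of both lists than of the genes. On chromosome 9, 5 of 131 DNAJC12KO peaks and 7 of 83 WT peaks lay before 50 Mb, with 27.8% of the genes. On chromosome 8, 22 of 90 DNAJC12KO peaks and 14 of 76 WT peaks lay before 45 Mb, with 40.8% of the genes.

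With the ends as chosen here, the 2 long-arm ends differed in which list had more peaks. The 8q end had 0.795 DNAJC12KO peaks for each WT peak, and the rest of chromosome 8 had 1.59. The 9q end had 1.68, and the rest of chromosome 9 had 1.49. Put as shares of the peaks of both lists, DNAJC12KO peaks made up 44.3% at the 8q end (interval 32.4 to 56.7%) and 62.7% at the 9q end (interval 52.6 to 72.1%). The share over all chromosomes was 58.6%. The interval at the 8q end includes 50%, and the 1 Mb window just before that end held 16 DNAJC12KO and 12 WT peaks. With lists of equal length, the share was 36.1% at the 8q end (interval 24.2 to 49.4%). At the 9q end it was then 55.3% (interval 44.1 to 66.1%), which includes 50%. Counting only folds of 4 or more, the 8q end had 5 DNAJC12KO and 22 WT peaks, and the 9q end had 16 and 11. All chromosomes had 475 and 548 such peaks, a DNAJC12KO share of 46.4%. The rest of chromosome 8 had 18 and 15, and the rest of chromosome 9 had 13 and 17, so that its ratio turned to 0.765. The 5 DNAJC12KO peaks comprised 2 in SCRIB, a scaffold protein of cell polarity (folds 4.30 and 4.09), and 1 each in WDR97 (4.52), TONSL (4.00) and ARHGAP39 (4.17). Copy number of these arms in the 2 lines was not measured in the files used, and its part in these numbers was not tested.

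**Figure D3:**
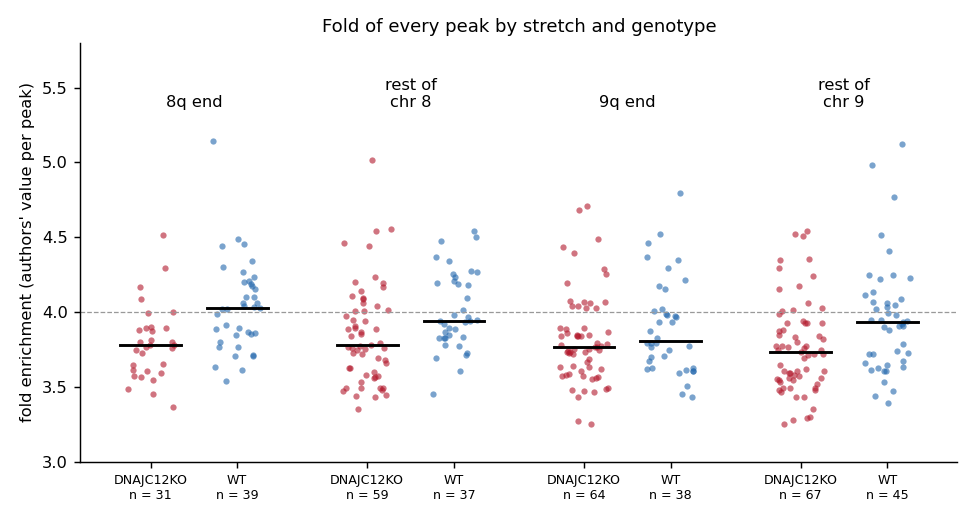
Each point is the authors' fold enrichment of 1 peak, DNAJC12KO left of WT, in the terminal stretch and the rest of chromosomes 8 and 9, and black lines are medians. At the 8q end the medians are 3.78 in DNAJC12KO cells and 4.03 in WT cells, and 5 DNAJC12KO and 22 WT peaks reach the dashed line at a fold of 4.

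Peaks of both lists formed chains along the chromosomes, here taken as runs with gaps of at most 50 kb. Chromosome 8 had 65 chains, of which 8 held 5 or more peaks and 88 peaks together, and 41 were single peaks. Chromosome 9 had 91 chains, of which 7 held 5 or more peaks and 81 peaks together, and 50 were single peaks. Of these 15 long chains, 10 lay at the 8q or 9q end and held 122 peaks, and 5 lay before the ends and held 47. Those 5 lay close to the chosen ends, between 141516159 and 142684096 on chromosome 8 and between 133401711 and 133853749 on chromosome 9. No long chain lay elsewhere on the 2 chromosomes. The longest by number of peaks spanned 136273862 to 136540390 on chromosome 9, from CCDC187 over GPSM1, CARD9, SNAPC4, INPP5E and SEC16A to NOTCH1, with 12 DNAJC12KO and 7 WT peaks. On chromosome 8, a chain from 143794702 to 143991899 over SCRIB, PUF60, NRBP2, EPPK1, PLEC, PARP10 and GRINA held 7 DNAJC12KO and 9 WT peaks. A chain from 143380937 to 143529772 at RHPN1, MAFA and ZC3H3 held 7 and 8, and a chain from 144400820 to 144551145, from CPSF1 to ARHGAP39, held 7 and 8. Both genotypes contributed to 19 of the 65 chains on chromosome 8 and 29 of the 91 on chromosome 9. These totals include the 41 and 50 single peaks, which cannot hold peaks of both lists. The 19 and 29 therefore all lie among the chains with more peaks, and most of those chains held both genotypes.

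Few exact places were shared, and more peaks had a peak of the other list nearby, as a wider reach must give. By an overlap of at least 1 bp, 10 of 221 DNAJC12KO peaks (4.52%, interval 2.19 to 8.16%) met a WT peak, against 6.31% of the whole DNAJC12KO list. In the WT list 10 of 159 peaks (6.29%, interval 3.06 to 11.3%) met a DNAJC12KO peak, against 8.88% of the whole WT list. On the other chromosomes the shares were 6.46% and 9.11%, inside both intervals. Of the 10 pairs, 3 lay on chromosome 8, all at the 8q end, and 7 on chromosome 9, of which 5 lay at the 9q end. At the 8q end, 24 of 31 DNAJC12KO peaks had a WT peak no more than 10 kb away, and 26 of 39 WT peaks had a DNAJC12KO peak that near. At the 9q end the numbers were 20 of 64 DNAJC12KO peaks and 19 of 38 WT peaks. On the rest of chromosome 8 they were 8 of 59 and 4 of 37, and on the rest of chromosome 9 they were 7 of 67 and 9 of 45. The median distance to the other list was 1.85 kb for DNAJC12KO and 5.16 kb for WT peaks of the 8q end, and 20.9 kb and 9.78 kb for those of the 9q end. Over the other chromosomes the medians were 45.2 kb for DNAJC12KO and 17.8 kb for WT peaks. These distances were not set against other placements of as many peaks.

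**Figure D4:**
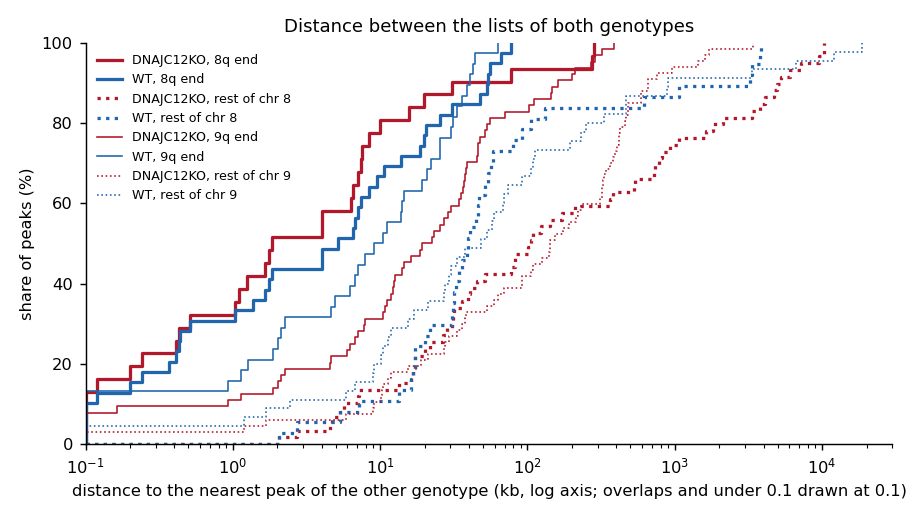
Lines give the cumulative share of peaks by their distance in kb (log axis) to the nearest peak of the other genotype, red for DNAJC12KO and blue for WT, thick for chromosome 8 and thin for chromosome 9, solid for the terminal stretches and dotted for the rest. The solid lines of the 8q end lie furthest to the left, with medians of 1.85 kb (DNAJC12KO) and 5.16 kb (WT).

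The overlapping pairs lay at or in named genes. EPPK1, the epiplakin gene, had the closest match, with a DNAJC12KO peak at 143868534 to 143869336 (fold 3.64) and a WT peak at 143868614 to 143869482 (fold 4.10). They shared 723 bp, or 90.0% of the DNAJC12KO and 83.2% of the WT peak. At GFUS, which encodes GDP-L-fucose synthase, the DNAJC12KO peak at 143613267 to 143614180 (fold 3.65) and the WT peak at 143613651 to 143614326 (fold 3.91) shared 530 bp. At RHPN1 the DNAJC12KO peak at 143381621 to 143382231 (fold 3.61) and the WT peak at 143381744 to 143382955 (fold 3.63) shared 488 bp. These were the 3 pairs of chromosome 8.

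On chromosome 9 the pairs overlapped less. At EHMT1, a histone H3 lysine 9 methyltransferase gene, the DNAJC12KO peak at 137834083 to 137834594 (fold 3.72) and the WT peak at 137834381 to 137834688 (fold 3.63) shared 214 bp. That place is 1.64 kb from the end where EHMT1 stops and 215 kb from its start. Next to LCN15, the DNAJC12KO peak at 136764908 to 136765268 (fold 3.69) and the WT peak at 136764737 to 136765069 (fold 4.01) shared 162 bp, 0.470 kb upstream of the start shown above. At VAV2, a guanine nucleotide exchange factor gene, the DNAJC12KO peak at 133990530 to 133991102 (fold 3.49) and the WT peak at 133990171 to 133990624 (fold 3.63) shared 95 bp, 1.75 kb inside its start. Of the 7 pairs, those at LCN15 and VAV2 lay within 3 kb of a listed start. The pairs in ABCA2, KCNT1, USP20 and NDOR1 shared 126, 118, 40 and 22 bp, and lay 4.80 to 13.7 kb from the nearer gene end.

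Peaks lay mainly inside protein-coding genes. In the DNAJC12KO list, 124 of 221 peak centres (56.1%) lay inside such a gene further than 3 kb from its ends, 48 (21.7%) lay nearer to an end, 11 (4.98%) lay in another annotated gene and 38 (17.2%, interval 12.5 to 22.8%) lay outside all genes. In the WT list these numbers were 101 of 159 (63.5%), 41 (25.8%), 5 (3.14%) and 12 (7.55%, interval 3.96 to 12.8%). These shares were not taken over the whole lists, nor set against the part of the sequence that genes cover. They therefore describe where these peaks lie and show no preference for genes. Of the 34 DNAJC12KO peaks at a gene end of chromosome 9, 17 were at the end where a gene stops, 9 at a start and 5 at both. Of the 19 such WT peaks, 8 were at a stop, 6 at a start and 3 at both. No strand was listed for the remaining 3 and 2, nor for genes of chromosome 8.

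Of the 1493 protein-coding genes on both chromosomes, 65 (4.35%) had a DNAJC12KO peak with at least 1 base no more than 3 kb from either end, against 3.85% of all protein-coding genes. In the WT list 56 (3.75%) did, against 3.18% of all. Both lists had such a peak at 12 genes (0.804%), and the share over all genes was 0.804% too. With peaks anywhere in the gene counted as well, the shares were 9.51% for DNAJC12KO, 7.64% for WT and 3.42% for both, against 8.23%, 6.46% and 2.92% of all genes. Chromosome 8 had 18 DNAJC12KO and 31 WT genes with a peak at an end, and chromosome 9 had 47 and 25. At listed starts of chromosome 9, 23 of 677 genes (3.40%) had a DNAJC12KO peak within reach of 3 kb and 12 (1.77%) had a WT peak. Both lists had one at 4 genes (0.591%), namely VAV2, LCN15, SLC34A3 and LOC122513141. The share at listed starts was not taken over all chromosomes, so these counts have no such figure beside them.

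Some genes held several peaks. The 6 genes of each chromosome with the most are described here, with ties taken in alphabetical order. PUF60 is 1 of 5 genes of chromosome 8 with 3 peaks, and ABCA2 and EHMT1 are among 7 genes of chromosome 9 with 4. Peak numbers were not divided by record length, and a longer record has more room for peaks. The records ran from 13.0 kb (PUF60) to 195 kb (TSNARE1) on chromosome 8, where the median protein-coding gene has 29.1 kb. On chromosome 9 they ran from 21.7 kb (ABCA2) to 230 kb (VAV2), where the median is 24.7 kb. TSNARE1, which encodes a SNARE-domain protein, had 5 DNAJC12KO and 4 WT peaks inside its record (142212080 to 142407029), with folds of 3.43 to 4.09 and 3.84 to 4.47, and 0 of them overlapped. ZC3H3, a zinc finger gene of messenger RNA export (143437659 to 143541447), had 4 DNAJC12KO and 5 WT peaks. With a DNAJC12KO peak 1.35 kb outside the record, each of its peaks lay 0.414 to 1.85 kb from a peak of the other genotype. Of these, 0 overlapped. Few peaks did anywhere, namely 6.31% of the whole DNAJC12KO list and 8.88% of the whole WT list. ADGRB1, an adhesion receptor gene of the brain (142449649 to 142545007), had 4 peaks in each list. Its DNAJC12KO peak nearest to the low-coordinate end of the record had its centre 5.95 kb inside it, and the 2 WT peaks with the highest folds, 4.24 and 4.01, had their centres 3.07 and 7.06 kb from the other end. PLEC, the plectin gene, had 2 DNAJC12KO peaks (3.89 and 3.75) and 3 WT peaks (4.02, 4.34 and 4.44). ARHGAP39, a GTPase-activating protein gene, had 2 DNAJC12KO and 4 WT peaks, and PUF60, a splicing factor gene, had 1 and 2.

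On chromosome 9, KCNT1, a sodium-activated potassium channel gene (135702185 to 135795502), led with 6 DNAJC12KO and 3 WT peaks. The DNAJC12KO folds ran from 3.56 to 4.28 and the WT folds from 3.70 to 3.97. RXRA, the retinoid X receptor alpha gene (134326455 to 134440585), had 1 DNAJC12KO peak (fold 4.03) and 5 WT peaks (folds 3.59 to 4.30), and the nearest of them were 25.7 kb apart. NOTCH1, the receptor gene of Notch signalling (136494433 to 136546048, minus strand), had 3 DNAJC12KO peaks (3.73, 3.67 and 4.04) and 2 WT peaks (4.46 and 3.98). The NOTCH1 peak nearest to the start was a DNAJC12KO one, 5.93 kb inside the gene. VAV2 had 3 DNAJC12KO and 4 WT peaks, ABCA2, a lipid transporter gene, had 1 and 3, and EHMT1 had 2 and 2. No difference in these counts was tested.

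**Figure D5:**
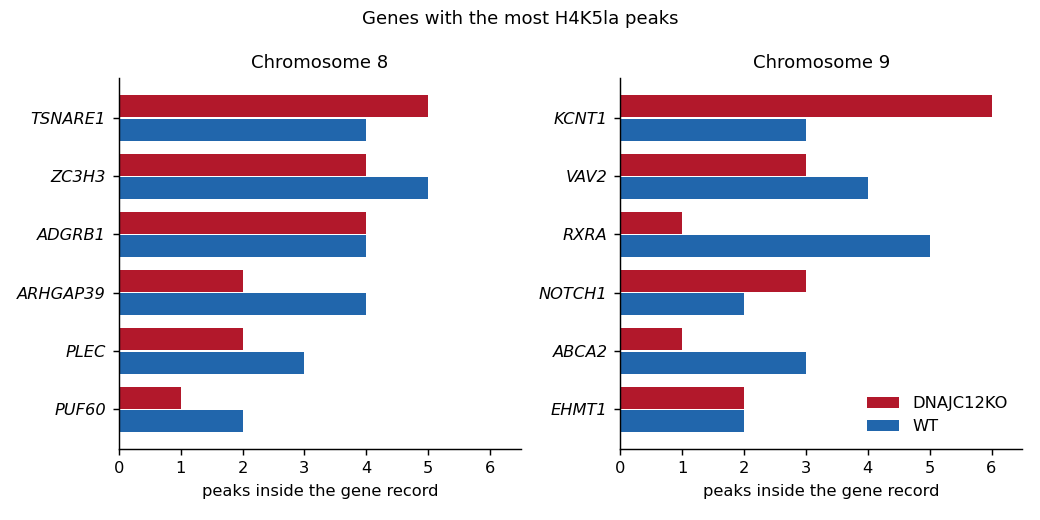
Bars give the number of H4K5la peaks inside the record of the 6 genes of each chromosome with the most peaks (ties in alphabetical order), DNAJC12KO (red) above WT (blue). KCNT1 has 6 DNAJC12KO and 3 WT peaks, and RXRA has 1 and 5. The numbers are not divided by record length.

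The peaks with the highest -log10 q were each called in 1 list. In the DNAJC12KO list they were a peak at 10547194 to 10547564 of chromosome 8, at PRSS51 and PRSS55, serine protease genes (fold 5.01, -log10 q 3.06), a peak at 134047253 to 134047547 of chromosome 9 in BRD3, a bromodomain reader of acetylated histones (4.68, 2.53), and a peak at 137218555 to 137218881 in NDOR1, a reductase gene (4.71, 2.52). Then came a peak 15.1 kb from C8orf90 (4.56, 2.42) and a peak in SLC20A2, a phosphate transporter gene (4.54, 2.39). In the WT list they were a peak at 144335589 to 144335959 of chromosome 8 in SCRT1, a Snail-family repressor of neurons (5.14, 3.19), and peaks in GBA2, a glucosylceramidase gene (4.98, 2.85), HMCN2 (5.12, 2.79), CACFD1 (4.77, 2.50) and AGPAT2, a phospholipid acyltransferase gene (4.79, 2.41). All 10 lacked an overlapping peak in the other list, as did most peaks. Only 6.31% of the whole DNAJC12KO list and 8.88% of the whole WT list overlapped the other list. The nearest peak of the other list was 379 kb away for PRSS51, 25.5 kb for SCRT1, 10.5 kb for BRD3 and 2.04 kb for NDOR1.

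At gene ends on chromosome 8, the DNAJC12KO list alone had, after PRSS51, 1 peak reaching both MAF1, the repressor of RNA polymerase III, and WDR97 (fold 4.52), then LOC107986982 (4.44) and TONSL, a gene of replication-coupled repair (4.00). The WT list alone had SCRT1, IQANK1 (4.49), C8orf90 (4.50), ADGRB1 (4.24) and KCNS2, a potassium channel subunit gene (4.20). Both lists had RHPN1, GFUS, ZC3H3, MAPK15 and RECQL4. At MAPK15, a kinase gene, the folds were 3.73 in DNAJC12KO cells and 3.77 in WT cells. At RECQL4, a DNA helicase gene, they were 3.55 and 4.02, at opposite ends of the gene.

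At gene ends on chromosome 9, the DNAJC12KO list alone had RNF208 (fold 4.71), GTF3C5, a subunit of transcription factor TFIIIC, and LOC124902325, which share a peak (4.54), URM1, a gene of transfer RNA thiolation (4.51), and QRFP, a neuropeptide gene (4.06). The WT list alone had AGPAT2 and EGFL7, which share a peak (4.79), SNAPC4, a factor for small nuclear RNA genes (4.35), IER5L (4.11) and CCL19, a chemokine gene (3.92). EGFL7 was WT-only at its ends yet had the DNAJC12KO peak on the promoter window of an inner start shown above. Both lists had NDOR1 and LOC122513141 (4.71 in DNAJC12KO, 4.02 in WT), SLC34A3 and its neighbour RNF224 (4.20 and 3.79), and LCN15. The DNAJC12KO peak of NDOR1 and LOC122513141 is the same peak as that of RNF208. RNF208 counts as DNAJC12KO-only because the nearest WT peak lay 3.74 kb from it, just past the reach of 3 kb.

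Gene lists put these peaks beside known functions. The counts that follow take peaks in the gene or no more than 3 kb from it, where 8.23% (DNAJC12KO) and 6.46% (WT) of all genes carry one. Most lists were drawn from these 2 chromosomes with their crowded ends in mind, so shares above those figures are no sign of a function. Of 22 genes of neuronal channels, receptors and neurofilaments, 4 had a DNAJC12KO peak and 3 a WT peak. KCNT1 and KCNK9, a leak potassium channel gene (4.00 in DNAJC12KO, 4.10 in WT), were in both. CACNA1B, the N-type calcium channel gene, had 3 DNAJC12KO peaks (highest fold 3.74) and 0 WT peaks, and GABBR2 had 1 (3.75) and 0. GRINA had 0 DNAJC12KO and 1 WT peak (3.99), and 17 of the 22, with the neurofilament genes NEFL and NEFM among them, had 0 in both.

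Of 17 signalling genes, 4 carried a peak in each list and 3 of these were common to both, NOTCH1, EGFL7 and BMP1, a procollagen protease gene (3.79 in DNAJC12KO, 4.18 in WT). TRAF2, an adaptor of tumour necrosis factor receptors, had 3 DNAJC12KO peaks (highest fold 4.43) and 0 WT peaks, and FGF17 had 0 and 1 (4.27). Of 41 genes listed under transcription and chromatin, 7 had a DNAJC12KO and 9 a WT peak, with EHMT1, BRD3 and RXRA in both. HSF1 (3.80), LHX2 (3.61), NR6A1 (3.72) and MAF1 had a DNAJC12KO peak alone. SCRT1, LMX1B (3.94), PAX5 (3.47), BARX1 (3.99), BOP1 (3.85) and NFIB (3.79) had a WT peak alone. BOP1, a gene of ribosome assembly, was counted because the list as drawn holds it. MYC had 0 in both.

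Of 16 genes of matrix and adhesion, 5 had a peak in each list, with PLEC, EPPK1 and COL5A1, a fibrillar collagen gene, in both. The COL5A1 peaks, at 134819661 to 134820096 in DNAJC12KO cells (fold 3.43) and 134814667 to 134815039 in WT cells (fold 4.37), lay 4.62 kb apart. ADAMTS13 (3.53) and LAMC3 (3.55) had a DNAJC12KO peak alone, and LOXL2, a lysyl oxidase gene (3.78), and ADAMTSL2 (4.13) a WT peak alone. DBH, dopamine beta-hydroxylase, which makes noradrenaline, had 0 DNAJC12KO peaks and 1 WT peak at 133643257 to 133643862 (fold 4.22), with the nearest DNAJC12KO peak 57.8 kb away. SLC18A1, a vesicular monoamine transporter gene, had 0 in both.

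Of 15 lipocalin genes, 4 had a DNAJC12KO peak and 2 a WT peak, with LCN15 in both. LCN6 and LCN10 shared 1 DNAJC12KO peak (fold 3.76), PTGDS, prostaglandin D2 synthase, had 1 (3.77), and LCN9 had 1 WT peak (3.63). Of 16 genes of the LY6 family and their 8q neighbours, which encode membrane-anchored surface proteins among others, 4 had a DNAJC12KO peak and 2 a WT peak, and ADGRB1 was in both. LY6L (3.90), PSCA (3.75) and JRK (3.73) had a DNAJC12KO peak alone and LY6H (3.76) a WT peak alone, while ARC, an immediate-early gene of synapses, had 0. Of 19 metabolic genes, 3 had a peak in each list, GFUS in both, PYCR3 (3.49, a peak that also reaches GFUS) and PTGDS in DNAJC12KO alone, and DGAT1 (3.54) and OPLAH (4.23) in WT alone. ZNF genes had 1 DNAJC12KO member (ZNF7, 3.82) and 1 WT member (ZNF707, 4.03) of 30. The 11 defensin and interferon genes, which belong to other tissues, had 0 in both.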

How the data were processed

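Chromatin immunoprecipitation sequencing for H4K5la gave 1 broad peak list per genotype (DNAJC12KO and WT). The authors called peaks with MACS2 2.2.6 on build hg38, per the submitters' processing notes. The sources used here do not state the aligner, filters, options or control. The deposited columns are a score (not used), a fold enrichment (a linear ratio), a -log10 p (not used) and a -log10 q for each peak, as the authors' caller gave them. Each list was taken as that of the immunoprecipitated library, since the labels name it for a genotype's input and immunoprecipitated sample alike.

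Genes and promoters came from RefSeq tables of GRCh38.p14, without exons, and without strand for chromosome 8. A window around the transcription start had been planned where strand is known; a reach of 3 kb from both ends of each RefSeq gene was used, so that the chromosomes are counted alike. The 8q end starts at 143 Mb and the 9q end at 134 Mb (alternatives 142 and 136 Mb). Overlaps (at least 1 bp) and distances were computed in Python 3.11.15 with numpy 2.4.6, pandas 2.3.3 and scipy 1.17.1, and plots with matplotlib 3.10.9. In a test on simulated data, 40 of 40 planted overlaps and 30 of 30 planted genes were found. No test between genotypes was possible.

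Members and gene lists were chosen with earlier results of these data known. Named genes were, per chromosome, the 5 genes with the highest -log10 q at an end in each of the DNAJC12KO-only, WT-only and shared sets, the 6 genes with most peaks, the 5 strongest peaks of each list, all overlapping pairs and list members with a peak. WISP1 and TSTA3 were counted under CCN4 and GFUS. Genes named for windows, chains and starts were chosen after their values were seen.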

Additional observations from a re-analysis of the deposited data

How the results depend on the processing

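No paired analysis was possible because each genotype has 1 library, and leaving out a replicate would leave none. Of 60 alternative values, 20 stayed within the counting interval or within 1.5 times the reported number, 35 moved further and 5 turned direction. All 5 were numbers of DNAJC12KO peaks divided by WT peaks, under settings added after seeing the data. With folds of 4 or more the ratio turned to 0.622 on chromosome 8, 0.765 on chromosome 9 before the 9q end and 0.867 over all chromosomes. With lists of equal length it turned to 0.855 on chromosome 8 and 0.978 on chromosome 9 before the 9q end. On chromosome 9 as a whole it moved to 1.04 and 1.10. Counting peaks at a -log10 q of 2 or more, 21 DNAJC12KO and 16 WT peaks were left, of which 0 were shared, and 0.670% (DNAJC12KO), 0.402% (WT) and 0% (both) of genes had a peak at an end. With a fold of at least 4, the numbers were 52 and 65 peaks, with 1.07%, 1.27% and 0.134% of genes; the terminal share of chromosome 8 was then 21.7% in the DNAJC12KO list, and the 8q end had 0.227 DNAJC12KO peaks for each WT peak, an alternative added after seeing the data. Shared peaks numbered 2 in each list when 50% of both peaks had to overlap, 59 (DNAJC12KO) and 58 (WT) within 10 kb, and 6 in each with lists of equal length. The terminal share was 52.2% (DNAJC12KO) and 67.1% (WT) with the 8q end begun 1 Mb earlier, and 32.8% and 27.7% with the 9q end begun 2 Mb later. The share of genes with a peak at an end was 1.94% (DNAJC12KO), 1.27% (WT) and 0.201% (both) with a reach of 1 kb, 10.2%, 8.44% and 3.55% with 10 kb, and 9.51%, 7.64% and 3.42% with peaks inside the gene. These settings change how many peaks or bases are counted by construction. Depth is unknown and limits every count.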
